A study of Mus musculus with 2 samples.

Results

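Dendritic cells, the antigen-presenting leukocytes that prime T cells, made up 142 of the 24282 cells captured from mouse pancreatic tumors. They were chosen by their own counts of RNA molecules, each counted by its unique molecular identifier (UMI). A member had at least 500 UMIs, at least 1 UMI of Ptprc, the pan-leukocyte gene, and UMIs of at least 2 of 8 markers. The 8 markers were Flt3, Xcr1, Clec9a, Cd209a, Zbtb46, Ccr7, Ccl22 and Ccl17, and together they had to reach 0.05% of the cell's UMIs. Cells in which C1qa, C1qb and C1qc, the macrophage complement genes, reached 0.1% of UMIs were left out. So were cells with a UMI of Cd3e or Cd3d, CD3 subunits of the T cell receptor complex. Because these values selected the cells, the levels of the 8 markers are given as a description.

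The tumors were grown in the pancreas from KPC cells, a mouse pancreatic cancer model. One group of animals had received DMSO, the solvent, and the other EIPA at 10 mg/kg, an amiloride derivative that blocks sodium-proton exchangers and is used to stop macropinocytosis, the uptake of extracellular fluid. Each group gave 1 sample made from 4 pooled, flash-frozen tumors, and the fixed cells were read with probes to annotated genes. The deposited matrix numbers its libraries 1 and 2, and none of the sources used here ties a number to a treatment, so each ratio below is library 2 over library 1 and carries no treatment direction. With 1 pooled library per group there is no replicate spread and no test; intervals are 95% counting intervals.

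Conventional dendritic cells develop from Flt3-dependent precursors and fall into subsets. Type 1 cells (cDC1) need Irf8 and Batf3, carry Xcr1 and the dead-cell receptor Clec9a, and present antigen from engulfed cells on MHC class I to CD8 T cells. Type 2 cells (cDC2) carry Sirpa and Cd209a and mainly present to CD4 T cells. Cells of either subset can mature, when they switch on Ccr7, the receptor that guides them to lymph nodes, with costimulatory ligands, and shut down antigen uptake.

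Library 1 held 28 dendritic cells among 12337 cells, 0.227% (0.151 to 0.328), and library 2 held 114 among the 11932 cells of at least 500 UMIs, 0.955% (0.789 to 1.15). The share was 4.21 times as large in library 2, with a counting interval of 2.79 to 6.36. Counted over Ptprc-positive cells alone, the shares were 1.43% of 1955 and 5.17% of 2204 cells, a ratio of 3.61 (2.40 to 5.44). The markers also had UMIs in Epcam-positive cells without Ptprc. There Clec9a was found in 1.45% and 3.98% of cells in libraries 1 and 2, and Xcr1 in 0.498% and 1.94%. Flt3 was found in 0.918% and 0.861%, and Ccl22 in 1.42% and 0.969%. Whether such UMIs added to the member share was not tested. Depth per member was alike, with a median of 7124.5 UMIs in library 1 and 6765.5 in library 2. The range was 980 to 34787 UMIs in the former and 704 to 38421 in the latter. Mitochondrial transcripts took a median of 0.576% and 1.12% of a member's UMIs, against 0.390% and 0.584% over all cells of each library, and their part in the library differences below was not tested. Of 225 barcode sequences found in both libraries, none had both copies among the members.

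The label was checked against markers of other cells, without the C1q and Cd3 genes that the rule used. The 7 T cell markers summed to 15.1 and 39.5 CPM (UMIs per 1000000 UMIs) in the members of libraries 1 and 2, natural killer markers to 0 and 8.08 CPM and B cell markers to 6.04 and 1.80 CPM. The T cell genes Trac, Trbc2, Cd4 and Cd2 were at 0 in library 1, and all 7 had UMIs in library 2. Lymphocyte genes were thus the lowest of the lists. Monocyte markers summed to 595 and 584 CPM and plasmacytoid dendritic cell markers to 366 and 385 CPM. The highest cell for the plasmacytoid markers had 0.204% of its UMIs in them in library 1 and 1.42% in library 2. The 9 macrophage markers summed to 925 and 1053 CPM and took a median of 0.0588% and 0.0492% of a member's UMIs, with a highest cell of 0.537% in library 1 and 0.824% in library 2. Epithelial transcripts took a median of 0.220% and 0.227%, with a highest cell of 0.761% in library 1 and 1.14% in library 2. In the 47 deepest members the median was 0.391%, against 0.404% and 0.434% over all cells of libraries 1 and 2. The source of these transcripts in the deep members was not tested. In Epcam-positive cells without Ptprc the medians were 0.765% and 0.791%. Clec9a, which the rule used, was found in 60.7% and 80.7% of members, given as a description, and in 1.45% and 3.98% of those epithelial cells.

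The members lay close to the thresholds in places. The last cell inside the marker threshold had 0.0501% of its UMIs in the 8 markers and the first outside 0.0498%. For the C1q bound the values were 0.0995% inside and 0.108% outside. Of the 142 members, 41 had UMIs of just 2 markers and 60 had a single Ptprc UMI. The cells that missed the marker share alone, 73 in library 1 and 96 in library 2, were deep, with median depths of 52159 and 37212.5 UMIs.

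Sorted by marker, most members were cDC1-marked, a majority that the member rule itself favors. Xcr1 and Clec9a helped to admit a cell and also marked it as cDC1. Cd209a, which marked cDC2, had few UMIs in either library, as given below. The subset shares are therefore descriptions of the chosen cells and no measure of the make-up of all dendritic cells. A member with a Ccr7 UMI was called Ccr7-marked. Among the rest, a cell with Xcr1 or Clec9a and no Cd209a was called cDC1-marked, and one with Cd209a alone cDC2-marked. In library 1, 17 of 28 members were cDC1-marked (60.7%, 40.6 to 78.5), and in library 2, 87 of 114 (76.3%, 67.4 to 83.8). Ccr7-marked cells were 4 of 28 (14.3%, 4.03 to 32.7) and 17 of 114 (14.9%, 8.93 to 22.8), so the intervals overlapped for both subsets. Thinned to 1000 UMIs per cell, with the 1 and 3 shallower members left out, the cDC1-marked shares were 51.9% and 64.0% and the Ccr7-marked shares 7.41% and 6.31%.

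**Figure D1:**
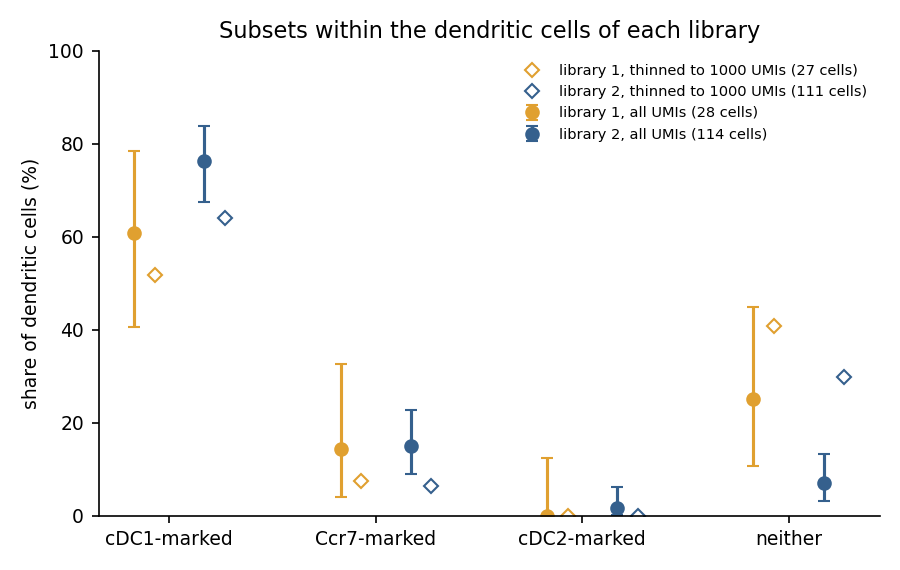
Share of dendritic cells in each marked subset, in percent of the members of library 1 (28 cells) and library 2 (114 cells), with exact binomial 95% intervals that cover counting error only; open symbols give the shares after thinning to 1000 UMIs per cell, and neither stands for cells with none of the subset genes. The cDC1-marked share was 60.7% and 76.3% and the Ccr7-marked share 14.3% and 14.9%, with overlapping intervals.

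Few members were cDC2-marked, a call that rests on Cd209a alone. None of the 28 in library 1 was, for which 3 counts would be a share of 10.7% and the exact interval reaches 12.3%, and 2 of library 2 were (1.75%). Cd209a, a C-type lectin, had 20 UMIs in 13 cells of library 1 as a whole and 40 UMIs in 26 cells of library 2, so this gene could mark few cells of any kind, and the count is no measure of how many cDC2 were present. The first cDC2-marked cell had 10142 UMIs, with 1 UMI of Cd209a, 10 of Sirpa, the cDC2 signal-regulatory receptor, and 24 of Itgae, an integrin of cDC1. The second had 10252 UMIs, with 2 of Cd209a, 2 of the lectin Mgl2 and none of Sirpa. The remaining 7 and 8 members carried none of Ccr7, Xcr1, Clec9a or Cd209a and are described below as unmarked.

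The cDC1-marked cells expressed the wider cDC1 program in both libraries. Irf8, the factor that specifies the lineage, was found in 17 of 17 and 85 of 87 cells, with a lowest, median and highest count of 1, 10 and 23 UMIs in library 1 and 0, 8 and 48 in library 2. Naaa, a lysosomal amidase, stood at 3, 25 and 55 UMIs and at 0, 17 and 67. Wdfy4, which cDC1 need to cross-present cell-associated antigen, stood at 3, 16 and 27 and at 0, 15 and 47. The medians per cell were higher in library 1 and the highest cells in library 2 for these genes, beside median depths of 12124 and 6536 UMIs. Clec9a itself, used by the rule, stood at 3, 10 and 40 UMIs in library 1 and 1, 11 and 62 in library 2. The program was summed over the cDC1 list, without Xcr1 and Clec9a. It took 0.234%, 0.975% and 2.55% of a cell's UMIs at the lowest, median and highest cell of library 1. In library 2 it took 0.127%, 1.55% and 3.45%. Over all members, Naaa stood at 3063 CPM in the 48 shallowest cells, 2913 CPM in the next 47 and 1007 CPM in the 47 deepest. The part of depth in the program shares, here and in the Ccr7-marked cells below, was not tested.

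The Ccr7-marked cells had lower levels of that program and higher levels of a maturation program. The cDC1 program took a median of 0.273% of UMIs in the 4 Ccr7-marked cells of library 1 (0.0879 to 0.434) and 0.188% in the 17 of library 2 (0 to 2.71). None of the 4 in library 1 had a UMI of Naaa, Itgae or Wdfy4, each found in all 17 cDC1-marked cells of that library. The mature program, summed without Ccr7, Ccl22 and Cst3, took 1.21%, 4.32% and 4.97% at the lowest, median and highest Ccr7-marked cell of library 1. In library 2 it took 0.491%, 1.21% and 6.29%. In cDC1-marked cells it took a median of 0.520% and 0.512%, with a highest cell of 0.788% in library 1 and 1.03% in library 2. In library 1 the groups did not overlap, and in library 2 they did. Cst3, left out of this sum, had a per-cell median of 5761 CPM in cDC1-marked and 5768 CPM in Ccr7-marked cells of library 1. In library 2 its medians were 11908 and 5393 CPM. Whether the groups lie apart with Cst3 in the sum was not tested. The overlap went only in part with the number of Ccr7 UMIs. Of the 17 cells with at least 2 Ccr7 UMIs, 14 lay above every cDC1-marked cell, with a median mature share of 1.62%. None of the 4 cells with 1 Ccr7 UMI did, all from library 2, and 3 of these 4 also had an Xcr1 or Clec9a UMI. Cells of library 2 with 9, 13 and 2 Ccr7 UMIs did not either, at mature shares of 0.982%, 0.993% and 0.647%. These were deep cells, of 16896, 21658 and 24264 UMIs in turn.

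**Figure D2:**
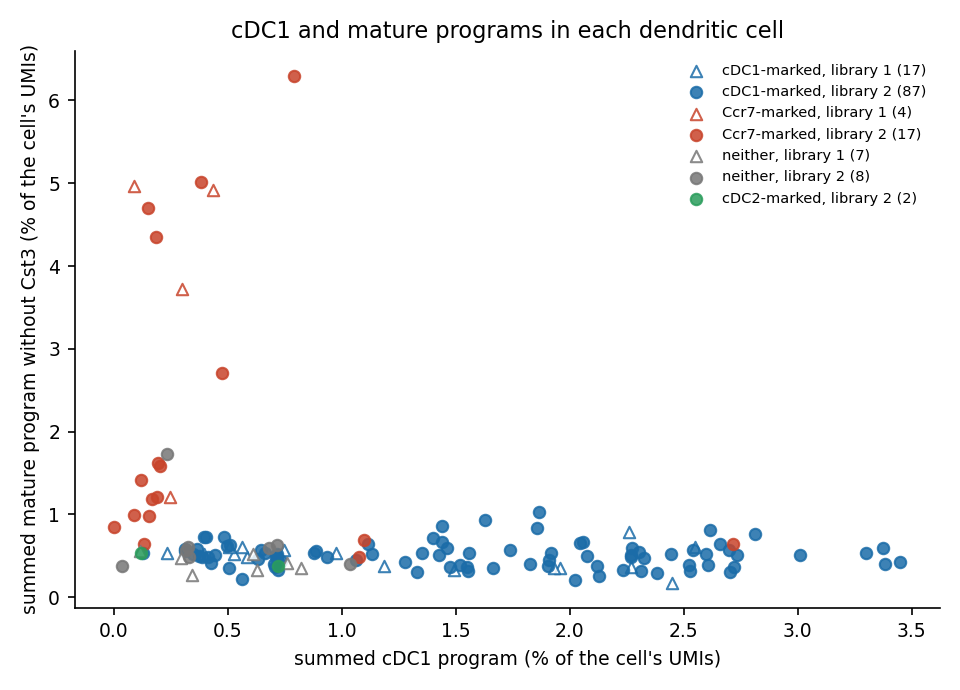
Each point is 1 dendritic cell, placed by the percent of its UMIs in cDC1 program genes (horizontal) and in mature program genes (vertical). The sums are without the genes that sorted the cells, and the mature sum is also without Cst3. Points are colored by subset and shaped by library. Ccr7-marked cells reach 6.29% in the mature program, while no cDC1-marked cell exceeds 1.03%.

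Gene by gene, 634 of 9216 tested genes (6.88%) were at least 2-fold higher in the 21 Ccr7-marked cells than in the 104 cDC1-marked cells, both libraries summed, and 762 (8.27%) at least 2-fold lower. A gene was tested when it reached 20 CPM in either population, and folds are on the log2(CPM + 1) scale. Of the 50 mature-program genes tested, 35 were at least 2-fold higher and none lower, with a median log2 difference of 2.24, against a median of 0.02 over all genes. In library 2 alone the median was 1.86 over 48 genes. Of 16 cDC1-program genes, 11 were at least 2-fold lower, with a median of -1.76. Because Ccr7, Xcr1 and Clec9a sorted the cells, and these lists follow the same cell states, the counts are descriptions. The Ccr7-marked cells of library 1 together held few UMIs, and 1 of them gave 8.69% of its own to collagen genes; without that cell 35 mature-program genes were still at least 2-fold higher, with a median of 2.17.

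Ccl22, a chemokine that draws regulatory T cells and part of the member rule, stood at 122 CPM in cDC1-marked and 722 CPM in Ccr7-marked cells, and Ccl5, which attracts T cells, at 17.5 and 427 CPM. Of the 132 Ccl22 UMIs in cDC1-marked cells 1 cell held 116, and without it the log2 difference was 5.50 in place of 2.56 for Ccl22 and 5.50 in place of 4.53 for Ccl5. Fscn1, which bundles actin in the dendrites of mature cells, stood at 83.1 and 722 CPM and was found in 40 of 104 and 19 of 21 cells. Cacnb3, a calcium channel subunit, stood at 185 and 1512 CPM. In single cells, Fscn1 was 3, 5.5 and 18 UMIs at the lowest, median and highest Ccr7-marked cell of library 1 and 0, 5 and 27 in library 2. Cacnb3 was 14, 17 and 30 UMIs in library 1 and 0, 12 and 48 in library 2. All 4 Ccr7-marked cells of library 1 held both genes, and 15 of 17 in library 2 held each.

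Of 8 costimulatory genes, 5 were at least 2-fold higher in Ccr7-marked cells. Cd40, the receptor for T cell help, stood at 17.5 CPM in cDC1-marked and 413 CPM in Ccr7-marked cells, Cd83 at 23.1 and 318 CPM, and Cd80, a ligand of CD28, at 51.7 and 250 CPM. Cd86, the other CD28 ligand, stood at 84.9 and 81.7 CPM. Of 17 inhibitory ligands and enzymes, 3 were at least 2-fold higher and 1 lower. Cd274, the ligand of PD-1, stood at 43.4 and 227 CPM, while Pdcd1lg2, its second ligand, stood at 120 and 141 CPM, and Havcr2, the receptor TIM-3, was lower by a log2 difference of -1.82. Subunits of NF-kappaB, the factor behind much of maturation, were higher too. Relb stood at 57.2 and 368 CPM, Rel at 45.2 and 232 CPM and Nfkb2 at 193 and 559 CPM. Of 7 cytokine genes, 4 were at least 2-fold higher, among them Il12b, the shared chain of interleukins that drive T cell polarization, at 7.38 and 59.0 CPM. Il15ra, which presents interleukin 15 to lymphocytes, stood at 4.62 and 127 CPM.

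The 8 genes that stood furthest above the cDC1-marked level in Ccr7-marked cells were Nr4a3, Il4i1, Synpo2, Slc4a8, Ikzf4, Gypc, Il7r and Nudt17. Il4i1, an amino-acid oxidase that restrains T cells, stood at 6.46 and 549 CPM and was found in 13 of 21 Ccr7-marked cells. Nr4a3, an orphan nuclear receptor, rested on a single UMI in cDC1-marked cells and stood at 0.923 and 145 CPM, a ratio of 157 with a counting interval of 26.3 to 6410. Il7r, a chain of the receptors for interleukin 7 and thymic stromal lymphopoietin, stood at 3.69 and 127 CPM. Each of these genes had at most 7 UMIs over the 104 cDC1-marked cells, while the unmarked cells held 7 Il4i1 UMIs in 1 cell of each library. Slc4a8, a bicarbonate transporter, stood at 4.62 and 250 CPM. Ikzf4, an Ikaros-family factor with 2 UMIs in cDC1-marked cells, stood at 1.85 and 86.3 CPM, a ratio of 46.7 with a counting interval of 11.3 to 414, and Nudt17, a nudix hydrolase with 3, at 2.77 and 90.8 CPM, a ratio of 32.8 with a counting interval of 9.73 to 172.

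In the other direction, Cxcr3, the receptor for interferon-induced chemokines, was found in 44 of 104 cDC1-marked cells at 80.3 CPM and in none of the 21 Ccr7-marked cells. Against a floor of 3 counts over those cells it was at least 5.89-fold higher in cDC1-marked cells. Cd300c2, an activating surface receptor, was at least 4.88-fold higher, Arhgap15, a brake on Rac, at least 4.20-fold, and Myh11, a myosin heavy chain known from smooth muscle, at least 3.79-fold, each with no UMI in Ccr7-marked cells. Cyth4, an exchange factor for Arf proteins, stood at 176 and 9.08 CPM, and Hmox1, haem oxygenase, at 69.2 and 4.54 CPM. Receptors that sense and take up material were at least 2-fold lower for 11 of 20 genes and higher for 3. Their median log2 difference was -1.22, and it was -1.60 over 19 genes in library 2 alone. In library 1 it was 0.54 over 21 genes. There the Ccr7-marked cells held 18460 UMIs, and 8 of the 21 genes were at 0 in them. Tlr3, the endosomal sensor of double-stranded RNA, stood at 190 CPM in cDC1-marked and 22.7 CPM in Ccr7-marked cells, and Tlr12, a sensor of profilin in mice, at 119 and 31.8 CPM. Ly75, the endocytic receptor DEC-205, went the other way, at 108 and 236 CPM.

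MHC class II transcripts were lower in Ccr7-marked cells, with 10 of 15 genes at least 2-fold lower and 1, H2-Eb2, higher. H2-Ab1, a class II beta chain, stood at 6938 CPM in cDC1-marked and 2711 CPM in Ccr7-marked cells, and Ciita, the class II transactivator, at 741 and 263 CPM. March1, the ubiquitin ligase that turns over surface class II, stood at 142 and 13.6 CPM. Per cell, H2-Ab1 was 9, 90 and 255 UMIs at the lowest, median and highest cDC1-marked cell of library 1 and 1, 3.5 and 17 UMIs in its Ccr7-marked cells. In library 2 the values were 1, 42 and 395 UMIs and 0, 11 and 162 UMIs. Median depth was 12124 UMIs in cDC1-marked and 4260 UMIs in Ccr7-marked cells of library 1. In library 2 it was 6536 and 14338 UMIs. The lower class II counts thus went with deeper cells in library 2 and shallower ones in library 1. Over all members, H2-Ab1 was lowest in the deepest cells. It stood at 9197 CPM in the 48 members of 704 to 4043 UMIs and at 10561 CPM in the 47 of 4447 to 12124 UMIs. In the 47 of 12600 to 38421 UMIs it stood at 4359 CPM. The part of depth in the class II difference was not tested. MHC class I and cross-presentation genes had a median difference of 0.26, with 2 of 19 at least 2-fold higher and 2 lower. In library 1 alone the median was 1.05 over 19 genes. The Ccr7-marked cells of that library held 18460 UMIs in all, so a few UMIs can move a gene past 2-fold. This library 1 median is thus not read as a trait of the list.

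**Figure D3:**
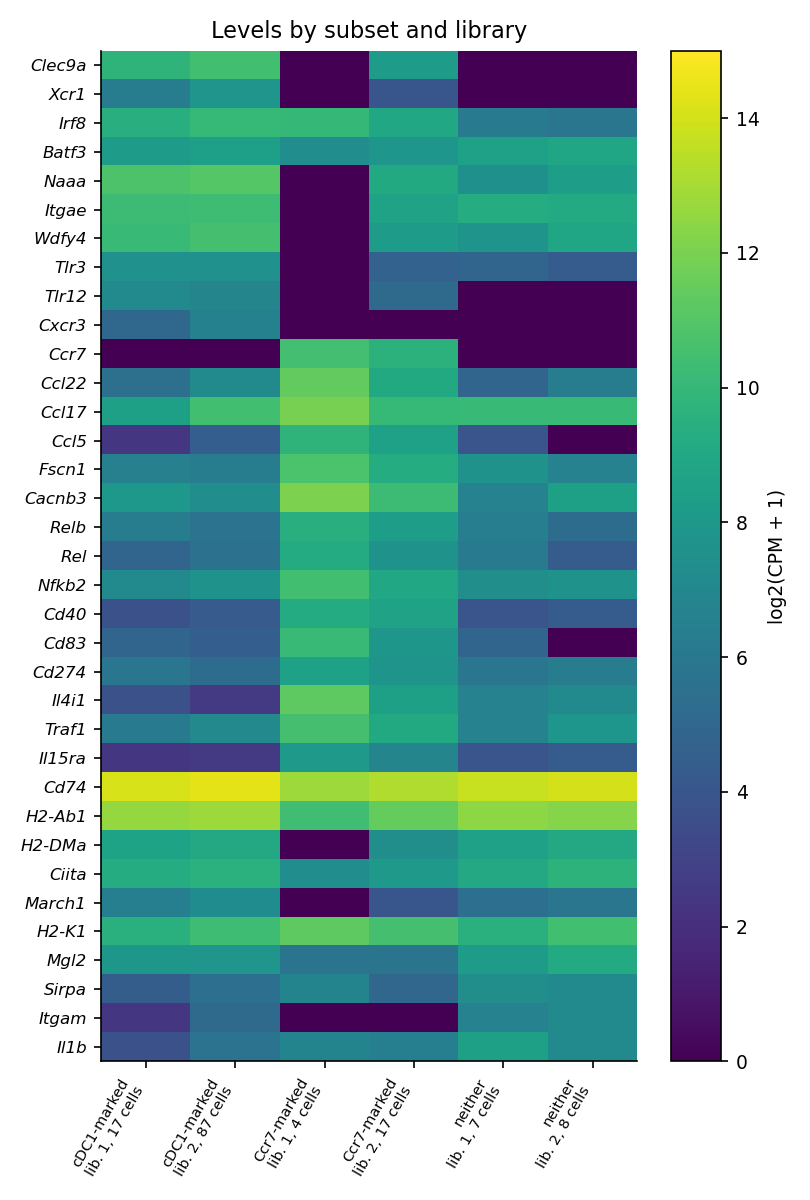
Colors give the level of each gene (rows) as log2(CPM + 1) of summed UMIs, brighter being higher, in the cDC1-marked, Ccr7-marked and unmarked (labelled neither) dendritic cells of each library (columns). Mature genes such as Cacnb3 (185 CPM in cDC1-marked and 1512 CPM in Ccr7-marked cells, both libraries summed) are brightest in the Ccr7-marked columns, and Naaa, Itgae and Wdfy4 are at 0 in the 4 Ccr7-marked cells of library 1.

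Maturation genes are classic targets of NF-kappaB, so the 250 bases before each start site were searched. The kappaB-type motif (GGGA, then any 4 bases, then CC), on either strand, was present in 14 of the 37 mature-program promoters that matched a RefSeq entry of GRCm38.p6 (37.8%), in 3 of 13 cDC1-program promoters (23.1%) and in 4684 of all 27025 promoters (17.3%). The mature promoters had a median GC content of 54.4%, the cDC1 promoters 51.6% and all promoters 52%. The interferon-type motif (GAAA, then any 2 bases, then GAAA) was in 2 of 13 cDC1 promoters, those of Tlr11 and Ifi205, in 1 of 37 mature promoters and in 3.04% of all. A PU.1-IRF composite motif (GGAA, then any 2 bases, then GAAA) was in 0 of 13 cDC1 promoters, 1 of 37 mature promoters and 2.38% of all. An AP-1 motif (TGA, then any base, then TCA) was in 0 of 13, 1 of 37 and 6.87%. A match is a run of letters and not a measured binding site. The promoters below are those of mature genes with a kappaB-type match and, for contrast, of 2 cDC1 genes, 5′ to 3′ on the gene's strand, with matches in capitals. Rel, at chr11:23770970-23771219 on the minus strand, Nfkb2, at chr19:46304487-46304736 on the plus strand, Nudt17, at chr3:96708561-96708810 on the minus strand, and Il4i1, at chr7:44836038-44836287 on the plus strand, carry kappaB-type matches. In Nudt17 a pair of matches on opposite strands overlap. The second match of Nfkb2 and the match of Il4i1 are on the opposite strand. Tlr11, at chr14:50357664-50357913 on the plus strand, carries the interferon-type match, and Clec9a, at chr6:129408612-129408861 on the plus strand, carries none of the motifs.
Rel: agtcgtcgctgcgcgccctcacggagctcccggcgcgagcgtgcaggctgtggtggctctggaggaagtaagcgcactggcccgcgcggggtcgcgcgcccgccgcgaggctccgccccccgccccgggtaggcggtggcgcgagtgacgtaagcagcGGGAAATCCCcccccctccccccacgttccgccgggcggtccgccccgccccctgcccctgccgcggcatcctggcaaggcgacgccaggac
Nfkb2: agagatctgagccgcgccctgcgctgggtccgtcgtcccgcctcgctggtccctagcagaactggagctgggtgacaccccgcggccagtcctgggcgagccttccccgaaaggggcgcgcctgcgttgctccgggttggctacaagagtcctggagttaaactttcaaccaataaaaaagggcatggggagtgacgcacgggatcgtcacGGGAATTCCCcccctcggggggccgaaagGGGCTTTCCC
Nudt17: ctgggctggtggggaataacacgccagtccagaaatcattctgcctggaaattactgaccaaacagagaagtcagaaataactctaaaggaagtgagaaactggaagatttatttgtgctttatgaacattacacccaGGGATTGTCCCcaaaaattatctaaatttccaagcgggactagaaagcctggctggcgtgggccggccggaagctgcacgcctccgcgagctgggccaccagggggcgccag
Il4i1: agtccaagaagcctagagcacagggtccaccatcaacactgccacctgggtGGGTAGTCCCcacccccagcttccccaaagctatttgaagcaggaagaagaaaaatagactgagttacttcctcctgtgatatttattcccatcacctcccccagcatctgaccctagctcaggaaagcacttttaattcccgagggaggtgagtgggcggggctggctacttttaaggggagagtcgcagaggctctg
Tlr11: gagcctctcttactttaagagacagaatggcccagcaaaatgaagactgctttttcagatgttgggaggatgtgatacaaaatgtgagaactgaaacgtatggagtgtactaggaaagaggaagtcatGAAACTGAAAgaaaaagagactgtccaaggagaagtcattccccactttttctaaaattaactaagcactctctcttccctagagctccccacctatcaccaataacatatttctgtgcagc
Clec9a: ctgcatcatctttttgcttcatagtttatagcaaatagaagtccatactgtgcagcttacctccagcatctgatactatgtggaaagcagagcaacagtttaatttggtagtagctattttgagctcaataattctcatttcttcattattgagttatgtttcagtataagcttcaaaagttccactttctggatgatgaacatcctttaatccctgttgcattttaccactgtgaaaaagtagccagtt

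The 15 unmarked cells had lower medians of the cDC1 program than cDC1-marked cells, and of the mature program than Ccr7-marked cells. The cDC1 program took a median of 0.611% and 0.326% of their UMIs in libraries 1 and 2, and the mature program 0.417% and 0.581%. Their highest cells had 0.818% and 1.04% in the cDC1 program and 0.562% and 1.73% in the mature program. The last value lay above every cDC1-marked cell, of which the highest had 1.03%. The member rule required 2 of Flt3, Zbtb46, Ccl22 and Ccl17 in them, and 14 of the 15 had a Ccl17 UMI and 14 a Zbtb46 UMI. Irf8 was found in 5 of 15 cells, at 66.2 CPM against 986 CPM in cDC1-marked cells, while Batf3 stood at 422 and 348 CPM. Of 9368 genes tested between the groups, a comparison chosen after seeing the data, 919 (9.81%) were at least 2-fold higher in unmarked cells and 1103 (11.8%) lower. Of 13 genes of the cDC2 program, 7 were at least 2-fold higher and none lower, with a median of 1.14. Sirpa stood at 157 CPM in unmarked and 38.8 CPM in cDC1-marked cells (7 of 15 and 17 of 104 cells), the integrin Itgam at 116 and 28.6 CPM (6 and 8 cells), and Mgl2 at 422 and 230 CPM (9 and 65 cells). The shift differed by library, with a median of 0.04 over 11 genes in library 1 and 1.77 over 12 genes in library 2. Most unmarked cells were also shallow, with median depths of 3035 and 4120.5 UMIs in the libraries in turn. The CPM values and folds above are of summed UMIs, in which a few deep cells weigh heavily. Of 69769 UMIs in the unmarked cells of library 1, single cells held 26269 and 30627. Of 51169 in library 2, 1 cell held 21976. At 1000 UMIs per cell the unmarked share was 40.7% and 29.7%, against 25% and 7.02% at full depth, so part of the other subsets falls into this class when depth is low. The unmarked cell of 26269 UMIs in library 1 gave 4.82% of its UMIs to collagen genes. No cDC2 name is given to these cells.

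Set against C1q-rich macrophages of the same library (542 and 577 cells), dendritic cells had higher levels of the cDC1 program and lower levels of macrophage genes. Of 8841 genes tested, 101 (1.14%) were at least 4-fold higher in dendritic cells in both libraries and 96 (1.09%) at least 4-fold lower. The cells of both kinds were chosen by markers, C1q genes included, so these counts are descriptions. Of 15 cDC1-program genes, 9 passed the higher threshold, with medians of 2.84 and 3.09 in libraries 1 and 2. Itgae stood at 1049 and 1106 CPM in the dendritic cells of libraries 1 and 2 and at 18.1 and 65.4 CPM in macrophages. Wdfy4 stood at 849 and 1243 CPM against 58.8 and 119 CPM, and Snx22, a sorting nexin, at 124 and 114 CPM against 2.45 and 8.15 CPM. Both libraries placed these genes on the same side, with the wider margins in library 1.

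Outside the lists, Cyp26b1, which degrades retinoic acid, stood at 692 CPM in the dendritic cells of either library and at 9.43 and 27.6 CPM in macrophages. It was found in 16 of 28 and 67 of 114 members. Btla, an inhibitory receptor of lymphocytes and dendritic cells, stood at 139 and 180 CPM against 3.21 and 11.3 CPM. Zfp366, the nuclear protein DC-SCRIPT of dendritic cells, stood at 163 and 242 CPM against 10.0 and 22.5 CPM, in 23 of 28 and 90 of 114 members, and Mycl, a MYC family factor used by cDC1, at 54.4 and 98.7 CPM against 3.77 and 6.56 CPM. These genes took no part in choosing the members. Of 9 macrophage markers, 8 were at least 4-fold lower, with Apoe, the lipid carrier, at 668 and 751 CPM against 16342 and 16581 CPM and Csf1r, the macrophage growth factor receptor, at 30.2 and 55.7 CPM against 660 and 803 CPM. MHC class II genes were close to the macrophage level, with medians of 0.42 and 0.38 over 14 genes, and Cd74, the invariant chain, stood at 16208 and 19458 CPM against 15360 and 18100 CPM. The exceptions were the class II modulators H2-Oa and H2-Ob, at least 4-fold higher, and the protease Ctss, at least 4-fold lower.

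**Figure D4:**
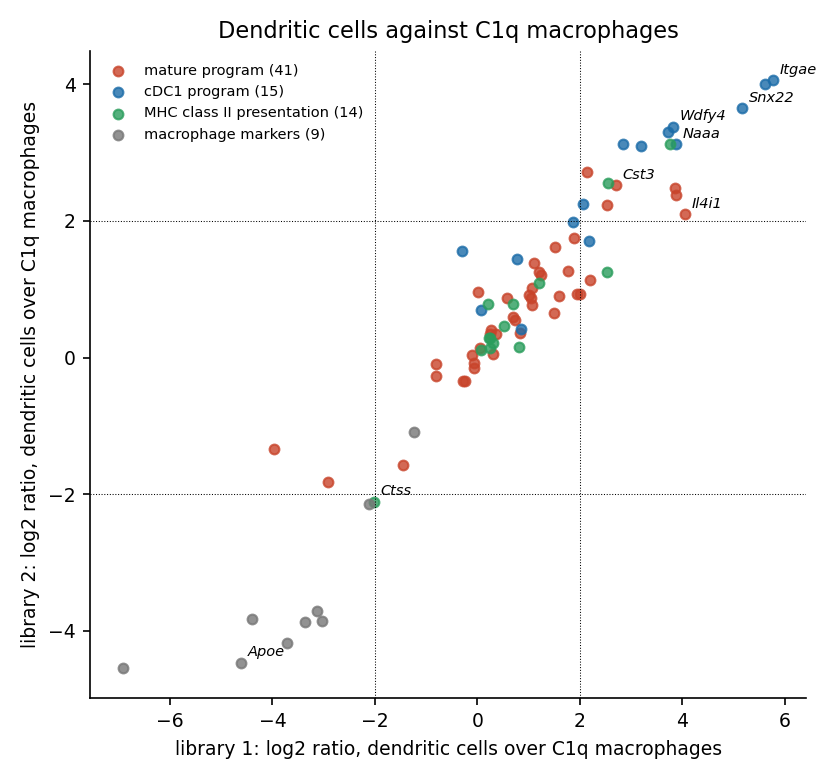
Log2 ratio of CPM + 1, dendritic cells over C1q-rich macrophages, with library 1 on the horizontal axis and library 2 on the vertical, each point being 1 tested gene of 4 lists and dotted lines marking 4-fold. The cDC1 program lies high in both libraries (medians of 2.84 and 3.09) and the macrophage markers low (medians of -3.37 and -3.85).

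Between the libraries, 342 of 9237 tested genes (3.7%) were at least 2-fold higher in the dendritic cells of library 2 and 380 (4.11%) at least 2-fold lower. The Poisson intervals of the 2 libraries were apart and higher in library 2 for 227 genes (2.46%) and lower for 300 (3.25%). MHC class I and cross-presentation genes lay above 0 for 17 of 19 members, with a median log2 ratio of 0.50 against -0.001 over all genes, 1 of them at least 2-fold higher and 10 with intervals apart. H2-K1, a classical class I heavy chain, stood at 834 CPM in library 1 and 1373 CPM in library 2. Psmb9, an immunoproteasome subunit, stood at 184 and 317 CPM, and Tap1, the peptide transporter, at 323 and 489 CPM. Each of these genes was higher in library 2, while Calr, a peptide-loading chaperone, stood at 251 and 230 CPM.

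The class I shift was not confined to dendritic cells. Its median was 0.55 in cDC1-marked cells alone, 0.41 in C1q-rich macrophages, 0.27 in T cells and 0.44 in Epcam-positive cells without Ptprc. H2-K1 stood at 810 and 1438 CPM in macrophages, 883 and 1335 CPM in T cells and 769 and 1364.5 CPM in the epithelial cells. For Tap1 the level was highest in dendritic cells: macrophages stood at 91.8 and 162 CPM, T cells at 109 and 154 CPM and epithelial cells at 55.2 and 108 CPM. Whether the shift differed between cell types was not tested. Among dendritic cells with under 0.3% epithelial transcripts the class I median was 0.26.

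**Figure D5:**
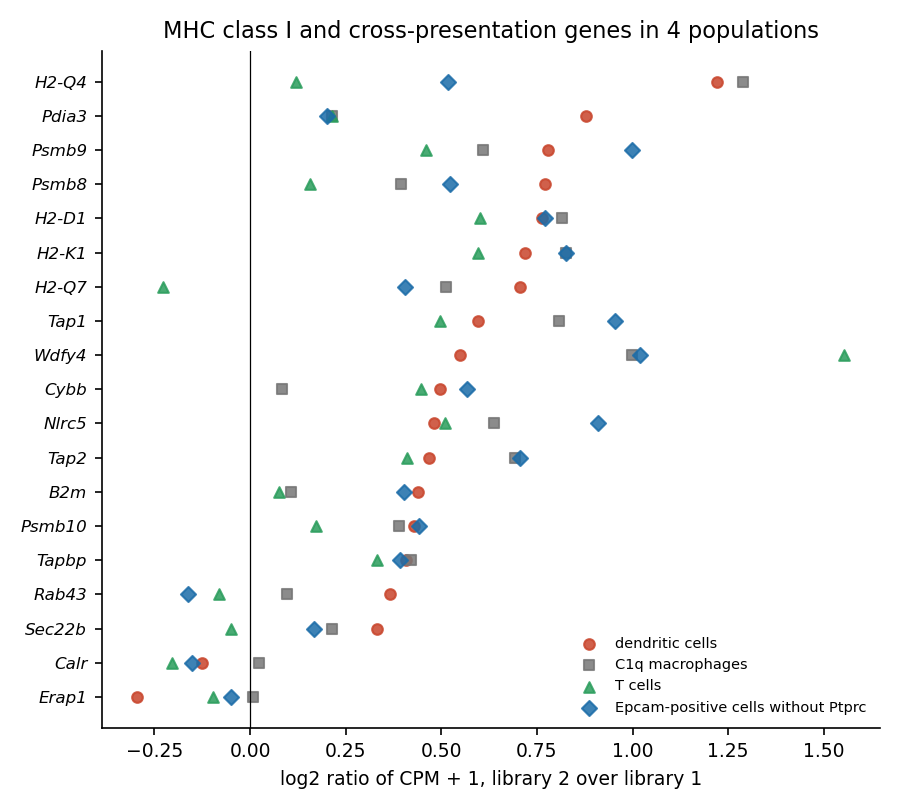
Log2 ratio of CPM + 1, library 2 over library 1 (horizontal axis), of the 19 MHC class I and cross-presentation genes tested in dendritic cells (rows) in dendritic cells, C1q-rich macrophages, T cells and Epcam-positive cells without Ptprc. Points lie mostly to the right of 0 in all 4 populations, with medians of 0.50, 0.41, 0.27 and 0.44 over the 19, 18, 18 and 15 genes that reached 20 CPM there, and the figure holds no error since there is 1 library per group.

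Among the other programs, chemokines had a median of 0.84 over 9 genes, with 4 at least 2-fold higher, and chemokine receptors 1.36 over 4 genes, with 3 at least 2-fold higher. In macrophages these medians were 0.64 and 0.49, and among dendritic cells under 0.3% epithelial transcripts they were -0.31 and -0.08. Cxcr3 stood at 24.2 and 70.9 CPM, and the chemokine values rest partly on 1 cell described below. MHC class II had a median of 0.16 over 14 genes, none of them 2-fold apart, and the cDC1 program 0.35 over 16 genes, with 3 at least 2-fold higher. For the cDC1 program the median was 0.27 in cDC1-marked cells alone and 0.41 over 11 genes in macrophages. It was 0.39 over 10 genes in T cells and 0.06 over 7 genes in epithelial cells. In dendritic cells, the levels of single genes of that program were as follows. Irf8 stood at 595 and 898 CPM and Naaa at 1333 and 1709 CPM, while Itgae stood at 1049 and 1106 CPM. The mature program had a median of -0.01 over 43 genes, with 1 at least 2-fold higher and 4 lower. Cell-cycle genes had a median of 0.55 over 17 genes, with Mki67, a marker of cycling cells, at 30.2 CPM (5 of 28 cells) and 52.1 CPM (29 of 114 cells). Their median was 0.67 in macrophages, 0.51 in T cells and 0.56 in epithelial cells. Immediate early genes, which respond within minutes to stress, lay below 0 for 11 of 12 members, with Fos at 121 and 75.4 CPM and Jun at 148 and 75.4 CPM. None of the 12 was 2-fold apart, and 2 had intervals apart. The median of these genes was -0.21 in macrophages, -0.50 in T cells and -0.24 in epithelial cells. Among dendritic cells under 0.3% epithelial transcripts their median was 0.19, against -0.19 over all members.

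Macropinocytosis and proton-exchange genes had a median of -0.13 over 21 genes, with 9 above and 12 below 0 and 1 at least 2-fold apart. Sdc1, a proteoglycan tied to macropinocytosis in pancreatic cancer cells, stood at 958 CPM in library 1 and 800 CPM in library 2. Slc9a2, a sodium-proton exchanger, was the gene past 2-fold, at 9.07 and 26.9 CPM, near the floor of the test and with overlapping counting intervals. Of the 21 genes, 0 had intervals apart and higher in library 2, and 1 had them apart and lower. Neither treatment nor its absence can be read from these values, since the library numbers carry no treatment.

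Several of the largest single-gene ratios came from a few cells. The 10 genes furthest above library 1 were Mmp12, H2-M2, Tlr11, Mcpt1, Itpr1, Rab7b, Crlf3, Lyz2, Tgfbi and Alas1. Mmp12, a macrophage elastase, stood at 27.2 and 566 CPM, and 1 cell of library 2 held 490 of its 631 UMIs there. With cells of any C1q level admitted, Mmp12, H2-M2, Lyz2 and Tgfbi were lower in library 2, with log2 ratios of -0.33, -1.32, -0.53 and -0.35. That cell had 16015 UMIs and was cDC1-marked through 1 Clec9a UMI, yet held 15 UMIs of Irf4, 14 of Sirpa and 15 of Itgam. It also held 842 of the 1451 Ccl17 UMIs of library 2, 116 of 235 of Ccl22, 145 of 147 of Ccl4 and 45 of 60 of H2-M2. Ccl17, a ligand of CCR4 and part of the rule, stood at 728 and 1302.5 CPM, a log2 ratio of 0.84 that was 0.03 without the 3 highest cells. Tlr11, which senses profilin in mice, was spread more evenly, at 9.07 CPM (3 of 28 cells) and 61.0 CPM (44 of 114 cells), as was Itpr1, the calcium-release channel, at 27.2 CPM (9 cells) and 109 CPM (69 cells). Kit, the stem cell factor receptor, stood at 24.2 CPM (6 cells) and 67.3 CPM (44 cells).

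The 10 genes furthest below library 1 were Cxcl14, Serping1, Col3a1, Tagln, Gpx3, Fstl1, Postn, Sfrp1, Bgn and Spon1, mostly genes of matrix and stroma. Cxcl14, a chemokine, stood at 780 and 19.7 CPM, the collagen Col3a1 at 1992 and 95.2 CPM and the proteoglycan Bgn at 934 and 63.7 CPM. Summed fibroblast markers stood at 6331 and 470 CPM. In library 1, 2 members held 1933 of the 2052 collagen UMIs, and 1 unmarked cell of 26269 UMIs held 252 of the 258 Cxcl14 UMIs. The median of the fibroblast list was -3.60 with these cells and -0.11 among members under 1% collagen UMIs, where the log2 ratios of Cxcl14 and Sfrp1 were 0.22 and 1.32.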

How the data were processed

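The authors deposited 1 matrix of raw UMI counts per gene and cell for both libraries, told apart by the number after the barcode hyphen; Cell Ranger 8.0.0 and the build mm10 are named in the submitters' processing notes. Members and gene lists were chosen with earlier results of these data known. Cells were selected on the counts as stated, with no further scaling, and UMIs were summed per library and subset as CPM with exact Poisson intervals; shares have exact Clopper-Pearson intervals. Both cover counting error only, and they treat UMIs and cells as independent. Library totals and depth per cell limit the precision: the members summed to 330889 UMIs in library 1 and 1114014 in library 2.

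Folds are log2 ratios of CPM + 1 over genes of at least 20 CPM in 1 of the populations compared. C1q-rich macrophages were cells with a Ptprc UMI and C1q genes at 0.1% of UMIs or more. Named genes between libraries had at least 50 CPM, intervals apart, UMIs in 10 or more members and a level no lower than in tumor-like cells; the 10 highest and 10 lowest ratios were taken. Against macrophages the 12 highest, and per subset the 8 highest, were taken; with 2 cDC2-marked cells, the subsets were set against each other as Ccr7-marked and cDC1-marked alone, in place of the planned mean of the other subsets. The Scrublet caller of scanpy 1.11.5, run on each library, marked 0 cells at its automatic threshold and so did not work. No cell was removed as a doublet, and the 1218 and 1139 highest scores, which held 4 and 20 members, were left out as an alternative. Alternatives varied the cell rule, scaling (TMM in edgeR 4.0.16 under R 4.3.3, and median-of-ratios factors), the added CPM, the low filter and the summing; leaving out collagen-rich members, epithelial-rich members or the cDC1-marked cell of most Ccl17 UMIs, cDC1-marked members alone and no bound on Ptprc were added after seeing the data. Python 3.11.15, numpy 2.4.6, scipy 1.17.1, pandas 2.3.3 and matplotlib 3.10.9 were used, and the fold computation was tested on simulated data.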

Additional observations from a re-analysis of the deposited data

How the results depend on the processing

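The dendritic share ratio of library 2 over library 1 ranged from 3.61 to 4.78, the cDC1-marked share ratio from 1.08 to 1.66 and the Ccr7-marked share ratio from 0.497 to 1.25, all within the counting interval of the main value; the cDC2-marked ratio had no value, since library 1 held no such cell. Counts of genes depended most on the settings. Genes past 2-fold higher in library 2 (342) were 751 with a marker share of at least 0.1%, 215 with no bound on C1q, 606 without the highest Scrublet scores, 545 in cDC1-marked members alone, 1650 in members under 0.3% epithelial UMIs, 150 with 10 CPM added, 878 as a mean of per-cell shares and 1326 with no filter on low genes. Genes past 2-fold lower in library 2 (380) were 595, 224 and 624 under the first 3 of these settings and 1072, 191, 946 and 1179 under the last 4. The median of MHC class I and cross-presentation (0.50) was 0.26 in members under 0.3% epithelial UMIs. That of MHC class II presentation (0.16) was -0.23 there and 0.44 with at least 3 markers. That of the mature program (-0.01) was -0.42 there and -0.30 as a mean of per-cell shares, which gave 0.60 for the cDC1 program (0.35). The epithelial limit put the median of all genes at 0.15 over the genes of the main comparison and at 0.090 over the 9597 genes it tests itself, so its changes are to be read against these. Genes past 4-fold over C1q macrophages in both libraries (101) were 56 with 10 CPM added and 157 under the epithelial limit; those lower (96) were 51 with 10 CPM added, 159 as a mean of per-cell shares and 172 against macrophages of at least 0.3% C1q. Single genes changed sign in 35 of 672 alternatives, for 16 genes, and 11 of the 35 were of genes past 2-fold in the main comparison. With no bound on C1q, H2-M2 was at -1.32, Mmp12 at -0.33, Lyz2 at -0.53 and Tgfbi at -0.35. Cxcl14 was at 0.22 in members under 1% collagen UMIs and 0.90 without its 3 highest cells, and Sfrp1 at 1.32 and 2.90, and at 0.86 in cDC1-marked members alone, where Bgn was at 0.32. Il4i1 (-1.12) was at 0.091 without its 3 highest cells. The causes of these shifts were not tested.

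No paired analysis was possible because each treatment has 1 library. The 28 members of library 1, and its 4 Ccr7-marked cells in particular, limit what its values can show.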

Other observations

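Partners of dendritic cells were measured in the same libraries. Xcl1, the chemokine that Xcr1 binds, stood in T cells at 52.6 CPM in library 1 (24 of 157 cells) and 117 CPM in library 2 (141 of 408 cells). In dendritic cells it had no UMI in library 1 and 3 UMIs in library 2. Flt3l, the growth factor of the lineage, stood at 13.6 and 18.5 CPM in T cells and at 15.1 and 18.0 CPM in dendritic cells. Csf2ra, a chain of the receptor for granulocyte-macrophage colony-stimulating factor, stood at 541 and 702 CPM in dendritic cells and was found in 27 of 28 and 109 of 114 of them.

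Cells that met every criterion but the absence of Cd3e and Cd3d numbered 1 in library 1 and 20 in library 2. Of the 20, 16 had a Clec9a UMI, 11 an Xcr1 UMI, 10 a Cd8a UMI and 11 a single Cd3 UMI. Siglech, a plasmacytoid dendritic cell receptor, had 20 UMIs in 1 member of library 2 and 7 in another. Both were cDC1-marked, at 4447 and 3158 UMIs in turn, and neither had a UMI of Naaa or Batf3. Mcpt1, a mast cell protease and one of the genes named between the libraries, had 158 of its 241 UMIs of library 2 in 1 cell.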
